A study of Mus musculus with 11 samples.

Results

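Toll-like receptors (Tlr) are the germline-encoded sensors with which phagocytes detect microbial lipids, proteins and nucleic acids. The receptors described here are 10 genes of the family, Tlr1 to Tlr9 and Tlr13. Their symbols were looked up in a table of 21860 genes measured by bulk RNA sequencing, and each had 1 row. The mouse receptors Tlr11 and Tlr12 were read apart from these 10. All 10 also passed the filter for testing, which kept the 13095 genes that reached 10 in 2 or more samples. The 5 receptors of the cell surface (Tlr1, Tlr2, Tlr4, Tlr5 and Tlr6) were set against the 5 endosomal ones (Tlr3, Tlr7, Tlr8, Tlr9 and Tlr13).

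The 11 samples came from mouse bone marrow monocytes cultured to day 6 and sorted as CD11b-low EpCAM+ cells, a model of monocyte-derived Langerhans cells (mLC-like cells). All cultures held GM-CSF at 20 ng/ml, a monocyte growth factor. All but 1 sample also had TGFβ (5 ng/ml) together with IL-34 (8 µg/ml), which steer monocytes toward Langerhans cells. There were 2 samples of TGFβ/IL-34 without addition, 2 samples with FICZ added (TGFβ/IL-34/FICZ), 3 samples with Jag1 added (TGFβ/IL-34/Jag1), 3 samples with both added (TGFβ/IL-34/Jag1/FICZ) and 1 sample of Jag1 only, the last with GM-CSF and Jag1 but neither TGFβ nor IL-34. Jag1, a Notch ligand, was carried by a feeder layer of OP9 cells, a mouse stromal line. FICZ is a ligand of Ahr, the aryl hydrocarbon receptor. The study terms it an agonist, whereas the deposited design text calls it an antagonist. The labels name OP9 co-culture for every sample, but the sample descriptions use separate codes for cultures with and without Jag1, and the effect of the stroma cannot be told apart from that of Jag1. The labels do not say whether replicates came from separate animals, so p-values measure only the spread between these samples.

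Surface receptors detect mostly lipids and proteins of the microbial envelope. Tlr2 pairs with Tlr1 or Tlr6 to bind lipopeptides, Tlr4 binds lipopolysaccharide and Tlr5 binds flagellin. The endosomal receptors detect nucleic acids: Tlr3 double-stranded RNA, Tlr7 and Tlr8 single-stranded RNA and its breakdown products, Tlr9 unmethylated CpG DNA and Tlr13 bacterial ribosomal RNA. The endosomal receptors leave the endoplasmic reticulum with the chaperone Unc93b1 and are cut by lysosomal proteases, and all of the family except Tlr3 signal through the adaptor Myd88.

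Tlr1 and Tlr6 are neighbouring genes that share coding sequence, so reads from the shared stretches can be split between them. On GRCm39 (GENCODE vM39), Tlr1 lies at chr5:65082022-65090941 and Tlr6 at chr5:65108704-65203497, both on the minus strand. Of the 31-base words of the canonical transcripts, 603 were shared, 20.0% of those of Tlr1 and 14.0% of those of Tlr6. They formed 9 runs of 36 to 229 bases, 873 bases in all. The longest is shown because no read inside it separates the genes. It is identical in exon 4 of Tlr1 (chr5:65082880-65083108) and exon 2 of Tlr6 (chr5:65111171-65111399), and all of it is coding.
Tlr1 and Tlr6 shared run: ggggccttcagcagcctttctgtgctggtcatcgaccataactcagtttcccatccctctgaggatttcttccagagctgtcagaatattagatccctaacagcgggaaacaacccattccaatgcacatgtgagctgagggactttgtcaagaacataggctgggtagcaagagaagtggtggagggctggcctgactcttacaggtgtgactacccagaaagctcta

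Upstream sequence was read for every receptor with an entry, since FICZ acts through Ahr and Jag1 through the Notch factor Rbpj. RefSeq promoters (GRCm38.p6) matched 8 of the 10 receptors with 10 promoters, and Tlr4 and Tlr7 had none in the table. In the 200 bases that run from 250 to 51 bases before the start, the core letters bound by Ahr (GCGTG, both strands) occurred in 0 of the 10, against 22.6% of 32851 promoters of all genes. The core letters bound by Rbpj (TGGGAA, both strands) occurred in the promoters of Tlr2 and Tlr9, against 17.9% of all promoters. No match says only that these letters are not in this window. The windows of Tlr5 (chr1:182954538-182954737, plus strand), of 1 of the Tlr1 starts (chr5:64933609-64933808, minus strand) and of Tlr9 (chr9:106222348-106222547, plus strand) are shown 5′ to 3′ as examples, 2 receptors that passed a test and the most abundant one, with the Rbpj core in capitals, which in Tlr9 begins 189 bases before the start on the opposite strand.
Tlr5 upstream window: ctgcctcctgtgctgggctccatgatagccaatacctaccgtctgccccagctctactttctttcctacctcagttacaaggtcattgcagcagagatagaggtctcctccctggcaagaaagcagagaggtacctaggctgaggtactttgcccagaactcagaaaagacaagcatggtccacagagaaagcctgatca
Tlr1 upstream window: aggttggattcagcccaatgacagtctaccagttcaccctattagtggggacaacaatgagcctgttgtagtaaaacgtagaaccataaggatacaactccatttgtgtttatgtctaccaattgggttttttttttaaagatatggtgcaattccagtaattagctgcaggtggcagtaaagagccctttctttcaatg
Tlr9 upstream window: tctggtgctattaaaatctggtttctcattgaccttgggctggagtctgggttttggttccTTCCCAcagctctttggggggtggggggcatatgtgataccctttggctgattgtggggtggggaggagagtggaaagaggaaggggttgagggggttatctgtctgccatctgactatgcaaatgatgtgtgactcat

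The deposited values are normalized counts, in which 1 read was worth 0.894 to 1.15 units, and each sample summed to between 21310445 and 27845052 units. A level of 3 reads, taken as the floor, was 2.68 to 3.44 units. Of the 5 Langerhans cell markers all were detected, but Cd207 (langerin) stood at 6.21 to 8.39 in 4 of the 5 samples with FICZ, against 1366 to 1784 in TGFβ/IL-34/Jag1. Replicate 1 of TGFβ/IL-34/FICZ stood apart from replicate 2, with a correlation across genes of 0.922 against 0.963 to 0.980 for the other replicate pairs. This replicate 1 and replicate 1 of TGFβ/IL-34/Jag1/FICZ shared a flow cell, and all other samples were on another. Within TGFβ/IL-34/FICZ, replicate and flow cell thus cannot be told apart. The comparisons that hold this group are given with and without each of its replicates where a call or value moved.

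Within the samples, Tlr9, Tlr2 and Tlr13 were the most abundant receptors and Tlr7, Tlr8 and Tlr3 the least. Levels were compared between genes as normalized counts per kb of the canonical transcript, averaged over the 11 samples. The mean levels per kb were 316 for Tlr9, 235 for Tlr2, 176 for Tlr13, 138 for Tlr5 and 114 for Tlr4. Lower down stood Tlr1 at 48.4 and Tlr6 at 33.6 per kb. Tlr7 at 6.00, Tlr8 at 3.52 and Tlr3 at 2.12 per kb closed the order. In every sample the 7 most abundant receptors lay above the 3 least abundant. Of neighbours in the order, Tlr6 and Tlr7 alone kept their places in all 11 samples. Tlr4 was above Tlr1 in 10 of 11 samples, and Jag1 only was the exception. Neighbours within the upper group were less fixed: Tlr9 was above Tlr2 in 8 of 11 samples, Tlr2 above Tlr13 in 6, Tlr13 above Tlr5 in 7 and Tlr5 above Tlr4 in 7. Tlr1 was above Tlr6 in 9 samples, Tlr7 above Tlr8 in 7 and Tlr8 above Tlr3 in 7. Both classes were thus present at the top of the order, and the endosomal class held both the most and the least abundant members.

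The spread between replicates also differed among the receptors. On the log2(value + 1) scale the SD within groups was 0.28 for Tlr4, 0.32 for Tlr5 and 0.40 for Tlr6. It was 1.74 for Tlr8 and 1.72 for Tlr3. Tlr3 was at 0 in 3 samples, Tlr7 in 1 and Tlr8 in 1, and a value of at least 10 was reached by Tlr3 in 5, by Tlr8 in 5 and by Tlr7 in 8 of the 11 samples. For these 3 receptors counting error weighs on every value, and their fold changes depend on the pseudocount. Exons of Tlr3 and Tlr4 overlap exons of the gene models Gm45542 and Gm69151, and whether the counting used strand is not given in the sources used here.

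**Figure D1:**
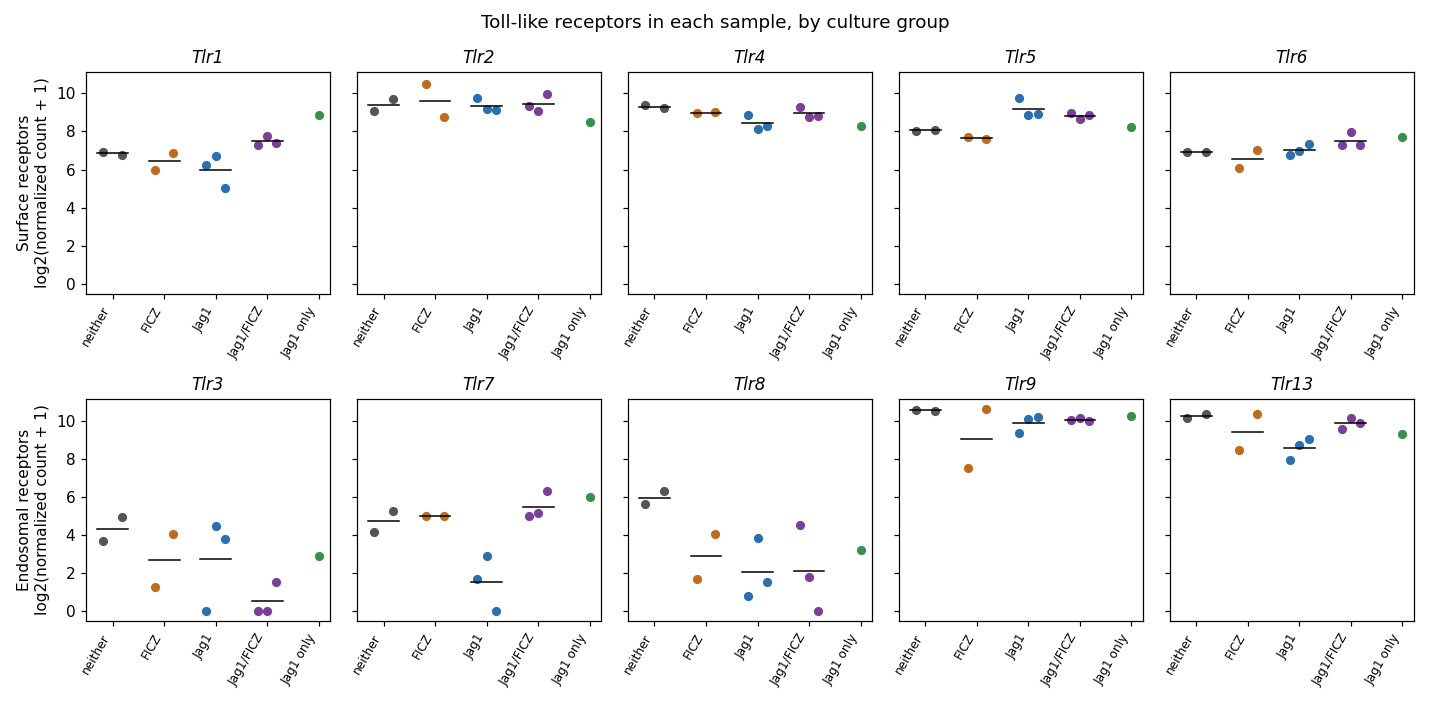
Each panel plots 1 receptor as log2(normalized count + 1) per sample (points) with the group mean (line), for cultures with TGFβ/IL-34 and neither addition, FICZ, Jag1 or both, and for Jag1 only (1 sample). The 3 Jag1 samples lie above the neither group for Tlr5 and below it for Tlr7 and Tlr13, and both replicates of the FICZ group differ widely for Tlr9.

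Adding Jag1 to TGFβ/IL-34 raised the flagellin receptor Tlr5 and lowered the RNA receptor Tlr7. These were the 2 of 10 receptors called in this comparison (limma, adjusted p under 0.05), where 6.60% of all tested genes were called, 2.64% higher and 3.96% lower. The groups did not overlap for 7 receptors, 1 higher and 6 lower, whereas 23.7% of tested genes were higher and 22.8% lower with no overlap. Tlr5 (chr1:182782311-182805500, plus strand) stood at 258 and 271 normalized counts in TGFβ/IL-34 and at 874, 463 and 477 in TGFβ/IL-34/Jag1. Every Jag1 sample was above both controls, and replicate 1 was the highest. The log2 fold change was 1.12 (SE 0.28, 95% CI 0.49 to 1.76, adjusted p 0.0436). Without Jag1 replicate 1 it was 0.83 (adjusted p 0.0761), and leaving out 1 replicate at a time kept the call in 1 of 5 fits, that without Jag1 replicate 2, with adjusted p from 0.0450 to 0.252. Within the 2 experiment codes of the labels that held both groups Tlr5 was higher by 0.84 and 0.81 on the log2(value + 1) scale. With this code as a block the call was lost (0.98, adjusted p 0.0678). The authors' file gives replicate 1 of TGFβ/IL-34 another code, and with the code in that file as a block Tlr5 passed.

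The other surface receptors did not pass as reported. Tlr4 (chr4:66745783-66849936, plus strand), the lipopolysaccharide receptor, stood at 673 and 596 in TGFβ/IL-34 and at 467, 282 and 306 with Jag1, so that the groups did not overlap. Its log2 fold change was −0.88 (SE 0.26, adjusted p 0.0753). Within the 2 experiment codes its differences were −1.25 and −0.96 on the log2(value + 1) scale. Tlr4 passed in 3 of 15 alternatives: with the code as a block (−1.02, adjusted p 0.0406), with array weights (−0.99, adjusted p 0.00545) and without Jag1 replicate 1 (−1.11, adjusted p 0.0327). With the code in the authors' file as a block it did not pass. The lipopeptide co-receptor Tlr1 stood at 120 and 108 without Jag1 and at 75.3, 102 and 31.5 with it. Again the groups did not overlap, but the interval of the difference covered 0 (log2 fold change −0.86, 95% CI −1.92 to 0.20, adjusted p 0.394). Its partner Tlr2 stood at 541 and 846 without and at 855, 582 and 566 with Jag1. Tlr6, the other partner, stood at 119 in both TGFβ/IL-34 samples and at 108, 127 and 163 with Jag1. Both overlapped between the groups, with log2 fold changes of −0.05 (95% CI −1.08 to 0.99) and 0.14 (95% CI −0.68 to 0.95).

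All 5 endosomal receptors had negative log2 fold changes with Jag1, with a median of −1.70 against −0.05 for the surface receptors and −0.004 for all tested genes, and 1 of them passed. Tlr7 (chrX:166086758-166113605, minus strand) stood at 16.8 and 37.0 in TGFβ/IL-34 and at 2.22, 6.46 and 0 in TGFβ/IL-34/Jag1. The highest Jag1 sample was below the lower control, and 2 of the 3 Jag1 samples were under the floor of 3 reads. The log2 fold change was −3.17 (SE 0.81, adjusted p 0.0459) with a pseudocount of 1, and −3.59 (adjusted p 0.0594) and −2.19 (adjusted p 0.0405) with pseudocounts of 0.5 and 4. Leaving out 1 replicate at a time kept the call in 1 of 5 fits, again that without Jag1 replicate 2, with adjusted p from 0.0209 to 0.387. Within the 2 experiment codes the differences were −1.25 and −5.25 on the log2(value + 1) scale, and with the code as a block Tlr7 did not pass (adjusted p 0.0961).

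Tlr13 (chrX:105186810-105204533, plus strand), the receptor for bacterial ribosomal RNA, stood at 1146 and 1307 in TGFβ/IL-34 and at 242, 425 and 517 with Jag1. These groups did not overlap, and the means were 1227 ± 114 (SD, n = 2) and 394 ± 140 (SD, n = 3). The log2 fold change was −1.70 (SE 0.49, adjusted p 0.0689). Tlr13 passed in 6 of 15 alternatives, but in none with 1 replicate left out. Among the 6 were the experiment code as a block (−1.36, adjusted p 0.0437) and the flow cell as a block (−1.70, adjusted p 0.0228). Within the same experiment codes, its differences on the log2(value + 1) scale were −1.43 and −1.34.

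Tlr8, the other sensor of single-stranded RNA on the X chromosome, stood at 48.3 and 77.5 without Jag1 and at 0.735, 13.3 and 1.90 with it. All Jag1 samples were lower, but they ranged widely, and the log2 fold change of −3.90 had an SE of 1.34 (adjusted p 0.130). Tlr9, the CpG DNA receptor, stood at 1529 and 1478 without and at 661, 1101 and 1182 with Jag1. The groups did not overlap, at a log2 fold change of −0.66 (95% CI −2.16 to 0.84, adjusted p 0.696). Tlr3, the double-stranded RNA receptor, stood at 11.7 and 30.1 without and at 0, 21.3 and 12.6 with Jag1, and the groups overlapped (−1.56, 95% CI −4.59 to 1.46). Tlr12, a mouse receptor of the family outside the 10, was lower with Jag1 as well, at 84.5 and 136 without and 2.58, 23.6 and 6.66 with it (log2 fold change −3.63, SE 0.69, adjusted p 0.0119).

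Markers of other cells moved in the same comparison. The 5 monocyte markers summed to 826 to 1302 in TGFβ/IL-34 and to 99.2 to 145 with Jag1, and 3 of the 4 tested (Ly6c2, Ccr2 and Plac8) were lower. The 8 OP9 stroma markers summed to 7.58 to 21.1 without and 360 to 985 with Jag1, where 5 of the 6 tested were higher, and the stromal markers Dcn and Lum stood at 0 in every sample. Of the 5 mast cell and basophil markers tested, 3 were lower, with a summed level of 6076 to 6338 without and 1777 to 2938 with Jag1. Of the 5 macrophage markers, 3 were lower and Mertk higher, and their sum was 16359 to 17633 without and 7442 to 9646 with Jag1. The 4 plasmacytoid dendritic cell markers summed to between 600 and 718 without and 761 to 925 with Jag1, and Siglech was called higher. The 4 type 1 conventional dendritic cell markers summed to 14178 and 14818 without Jag1 and to 2701, 5746 and 8815 with it, and none of the 3 tested was called. The 9 granulocyte and progenitor markers summed to 384 to 1588 without and 267 to 375 with Jag1, and Elane was called lower. The groups of all these sums did not overlap. Those of the 5 B cell markers did, at 7.94 to 25.5 without and 16.5 to 36.0 with Jag1. By the type 1 conventional dendritic cell sums the Jag1 replicates stood in the same order as for Tlr9 and Tlr13. The monocyte, macrophage and plasmacytoid dendritic cell sums gave that order too, and those of the other lists did not. The order was not tested. Of the defining members of the type 1 list, Xcr1 stood at 22.04 and 18.01 without and 7.97, 4.16 and 0.979 with Jag1. Its Jag1 replicates thus stood in the reverse order. Clec9a stood at 0 to 3.07 in both groups, and the other members, Cadm1 and Itgae, made up the rest of each sum. The 5 Langerhans cell markers summed to 154631 and 156759 without and 297404 to 310442 with Jag1, and Epcam was called higher. In bulk samples, fewer cells of a type and less RNA per cell cannot be told apart, and the part of these markers in the receptor results was not tested.

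**Figure D2:**
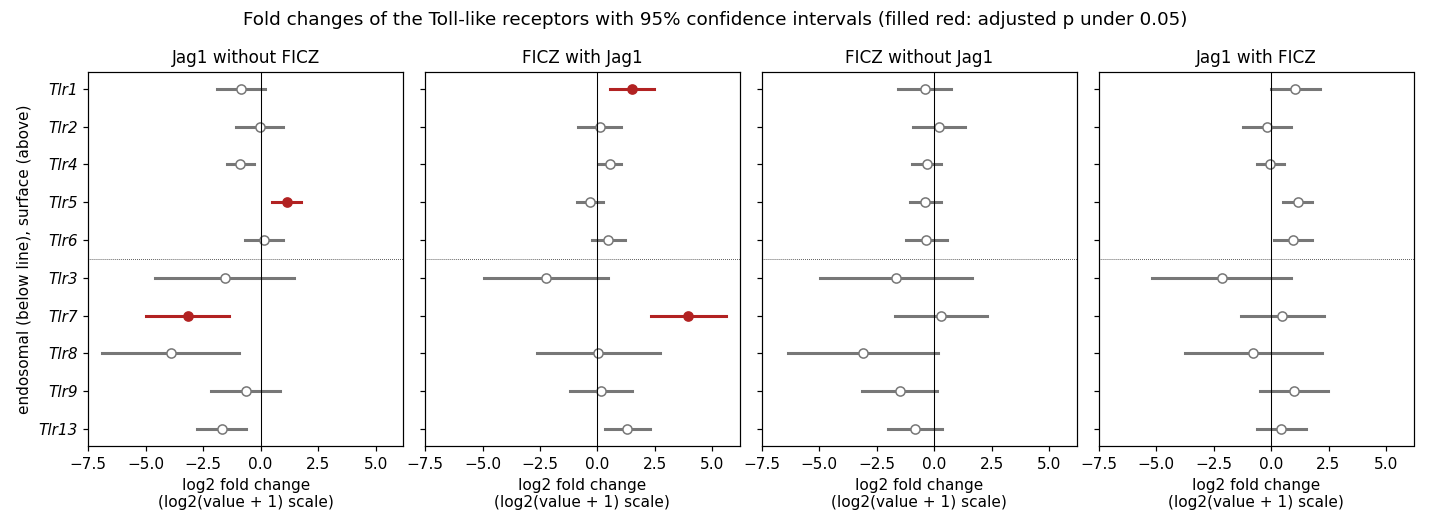
Log2 fold changes on the log2(value + 1) scale (circles) with 95% confidence intervals (lines) are plotted for the 10 receptors in 4 comparisons, surface receptors above the dotted line and endosomal ones below. Filled red symbols had an adjusted p under 0.05 (limma): Tlr5 and Tlr7 for Jag1 without FICZ, Tlr7 and Tlr1 for FICZ with Jag1, and none in the other panels.

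Adding FICZ to cultures with Jag1 raised Tlr7 and Tlr1. They were the 2 of 10 receptors called in a comparison where 17.7% of all tested genes were called, 10.9% higher and 6.71% lower, so the count of receptors is near the background. Tlr7 stood at 2.22, 6.46 and 0 in TGFβ/IL-34/Jag1 and at 30.5, 34.9 and 78.4 in TGFβ/IL-34/Jag1/FICZ. Every FICZ sample was above every sample without it. The log2 fold change was 3.96 (SE 0.73, 95% CI 2.34 to 5.57, adjusted p 0.00411), and 4.39 and 2.91 with pseudocounts of 0.5 and 4. Tlr7 passed in 16 of 16 alternatives, each of the 6 fits with 1 replicate left out included, with adjusted p from 0.00237 to 0.0209.

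Tlr1 stood at 75.3, 102 and 31.5 in TGFβ/IL-34/Jag1 and at 155, 218 and 165 with FICZ. The groups did not overlap, and the means were 69.6 ± 35.7 and 179 ± 33.8 (SD, n = 3 each). The log2 fold change was 1.49 (SE 0.43, adjusted p 0.0362). The call held in 1 of 6 fits with a replicate left out, with adjusted p from 0.0219 to 0.138, and it was lost without replicate 1 or 3 of TGFβ/IL-34/Jag1 and without any 1 of the FICZ replicates. Replicate 3 of TGFβ/IL-34/Jag1 was the lowest, and without it the log2 fold change was 1.01 (adjusted p 0.0951). Tlr6, with which Tlr1 shares coding sequence, stood at 108, 127 and 163 without and at 153, 252 and 158 with FICZ, and these groups overlapped (log2 fold change 0.47, adjusted p 0.387).

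Tlr13 was the third receptor whose groups did not overlap with FICZ, all 3 higher, where 23.6% of tested genes were higher with no overlap. It stood at 242, 425 and 517 without FICZ and at 757, 1133 and 939 with it, and its log2 fold change was 1.31 (SE 0.43, adjusted p 0.0653). In these 2 groups the replicate numbers pair the samples. With the replicate block, fitted over all 11 samples, Tlr13 passed (limma, adjusted p 0.0233), which made 3 called receptors in place of 2. In TGFβ/IL-34 the same numbers stand for other experiment codes, and Tlr13 also passed with the experiment code as a block. Within the 3 experiment codes the differences for Tlr13 were 1.64, 1.41 and 0.86 on the log2(value + 1) scale. For Tlr7 they were 3.29, 2.27 and 6.31, and for Tlr1 1.03, 1.09 and 2.35, so that each of these receptors was higher with FICZ in every experiment.

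The remaining receptors did not pass with FICZ in Jag1 cultures. Tlr4 stood at 467, 282 and 306 without and at 614, 436 and 455 with FICZ, overlapping groups with a log2 fold change of 0.53 (adjusted p 0.153). Within each experiment it was higher, by 0.39, 0.63 and 0.57 on the log2(value + 1) scale. Tlr5 stood at 874, 463 and 477 without and 504, 400 and 470 with FICZ, and its log2 fold change was −0.34 (95% CI −0.91 to 0.23). Tlr9 stood at 661, 1101 and 1182 without and 1045, 1120 and 1023 with it, and Tlr2 at 855, 582 and 566 without and 637, 545 and 990 with it. For both, the samples with and without FICZ were interleaved, with log2 fold changes of 0.16 (95% CI −1.18 to 1.50) and 0.10 (95% CI −0.83 to 1.02). Tlr3 stood at 0, 21.3 and 12.6 without and at 0, 0 and 1.85 with FICZ. Tlr8 stood at 0.735, 13.3 and 1.90 without and at 21.6, 2.46 and 0 with it. Neither separated the groups at this depth, with log2 fold changes of −2.25 (SE 1.22) and 0.04 (SE 1.20).

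Marker lists moved in both directions in the FICZ cultures with Jag1. The monocyte markers summed to 99.2 to 145 without and 3623 to 4414 with FICZ, and all 4 tested were called higher. The 9 granulocyte and progenitor markers summed to 267 to 375 without and 8403 to 12973 with FICZ (7 of 9 called higher), and the 6 mast cell and basophil markers to 1777 to 2938 and 9205 to 12178 (4 of 5 tested). OP9 markers summed to 360 to 985 and 646 to 4296, and the 5 B cell markers to 16.5 to 36.0 and 44.0 to 67.0. The plasmacytoid dendritic cell markers summed to 761 to 925 and 796 to 900, with Siglech called lower. The Langerhans cell markers ran the other way, with sums of 297404 to 310442 without and 60553 to 123023 with FICZ, and Cd207 and Mfge8 were called lower. The macrophage markers summed to 7442 to 9646 without and 9307 to 11741 with FICZ, with Cd68 called higher and Mertk lower. The type 1 conventional dendritic cell markers summed to 2701 to 8815 and 7293 to 9780, with none called. The part of these markers in the Tlr7 and Tlr1 results was not tested.

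FICZ without Jag1 changed no receptor past the threshold, in a comparison where 3 genes (0.0229%) were called by limma and 2284 had an unadjusted p under 0.05. The groups did not overlap for 3 receptors, Tlr4, Tlr5 and Tlr8, all lower, as for 23.1% of tested genes. The 2 FICZ samples lay far apart for several receptors. Tlr9 stood at 180 in replicate 1 and 1557 in replicate 2, and Tlr13 at 356 and 1308. Tlr2 ran the other way, at 1448 and 432. In TGFβ/IL-34 the same receptors stood at 1478 to 1529, 1146 to 1307 and 541 to 846, so replicate 2 lay near the controls and replicate 1 outside them. The log2 fold changes were −1.50 (SE 0.74) for Tlr9, −0.84 (SE 0.53) for Tlr13 and 0.22 (SE 0.51) for Tlr2, with adjusted p of 0.293, 0.367 and 0.806. With replicate 1 as the only FICZ sample, assumed to vary like the other groups, Tlr9 and Tlr13 were called lower and Tlr2 higher, among 5734 called genes. With replicate 2 alone, the log2 fold changes were 0.05, 0.10 and −0.65, and none was called. The 4 markers of type 1 conventional dendritic cells summed to 2671 in replicate 1 and 14750 in replicate 2, and to 14178 to 14818 in TGFβ/IL-34. Their defining members Xcr1 and Clec9a stood at 0 and 2.60 in replicate 1 and at 12.6 and 0 in replicate 2. Replicate 1 also stood apart by macrophage markers, at 9090 against 16367 in replicate 2 and 16359 to 17633 in TGFβ/IL-34. For the plasmacytoid dendritic cell markers it stood at 175, against 635 and 600 to 718. Both FICZ samples lay above the controls for monocyte markers (3723 to 3767 against 826 to 1302). So they did for granulocyte markers (3143 to 4951 against 384 to 1588). They lay below them for Langerhans cell markers (82287 to 92836 against 154631 to 156759). The part of all these markers in the difference was not tested.

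Tlr7 differed little between both groups without Jag1, at 30.6 and 31.1 with FICZ against 16.8 and 37.0 without (log2 fold change 0.29, 95% CI −1.69 to 2.27). Its response to FICZ was larger with Jag1 than without by 3.66 on the log2 scale (SE 1.15, 95% CI 1.11 to 6.22), but this interaction did not pass (adjusted p 0.154). The interaction of Tlr13 was 2.15 (SE 0.69, adjusted p 0.161), that of Tlr1 1.91 (SE 0.67, adjusted p 0.193) and that of Tlr4 0.85 (SE 0.37, adjusted p 0.249). None of the 10 receptors was called for the interaction, where 1.39% of tested genes were called by limma and 2458 had an unadjusted p under 0.05. So a different response to FICZ with and without Jag1 was not shown for any receptor. The interaction of Tlr13 was 1.21 (adjusted p 0.266) without FICZ replicate 1 and 3.09 (adjusted p 0.00116) without FICZ replicate 2. That of Tlr9 was 0.11 and 3.22 (adjusted p 0.927 and 0.000256), that of Tlr1 1.46 and 2.36 (0.371 and 0.0252) and that of Tlr6 0.33 and 1.31 (0.800 and 0.0483), in the same order. So 4 receptors were called without replicate 2 and none without replicate 1. The interaction of Tlr7 was 3.65 and 3.67 (adjusted p 0.244 and 0.0547).

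With both additions against neither, no receptor was called, against 4.48% of tested genes. Tlr5 stood at 504, 400 and 470 against 258 and 271, without overlap (log2 fold change 0.78, SE 0.28, adjusted p 0.172). Tlr7 stood at 30.5, 34.9 and 78.4 against 16.8 and 37.0, with overlap (0.78, adjusted p 0.717). Tlr3 and Tlr8 were lower without overlap, at 0, 0 and 1.85 against 11.7 and 30.1 and at 21.6, 2.46 and 0 against 48.3 and 77.5. Their log2 fold changes were −3.81 (SE 1.36, adjusted p 0.164) and −3.86 (SE 1.34, adjusted p 0.152). Of the 10 receptors, 3 were higher and 4 lower without overlap, beside 28.8% and 25.5% of tested genes. This comparison and the Jag1 comparison without FICZ share their control samples.

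When Jag1 was compared with its absence in FICZ cultures, no receptor was called, against 2.02% of tested genes. Tlr5 stood at 504, 400 and 470 with Jag1 and at 212 and 194 without it. Its groups did not overlap, and the log2 fold change was 1.16 (SE 0.28, adjusted p 0.0723), beside 1.12 in cultures without FICZ. The interaction of Tlr5 was 0.04 (95% CI −0.86 to 0.94). Tlr1 at 155, 218 and 165 against 61.9 and 117, and Tlr6 at 153, 252 and 158 against 66.1 and 131, also had no overlap, with log2 fold changes of 1.05 (adjusted p 0.217) and 0.96 (adjusted p 0.174). These 3 higher receptors stand beside 19.6% of tested genes that were higher without overlap. Within the experiment codes that held both groups, Tlr5 was higher by 1.25 and 1.04 on the log2(value + 1) scale. There Tlr1 was higher by 1.31 and 0.90 and Tlr6 by 1.20 and 0.93, whereas Tlr9 differed by 2.53 and −0.47. Tlr7 stood at 30.5, 34.9 and 78.4 with and 30.6 and 31.1 without Jag1 (0.49, 95% CI −1.32 to 2.30), so the values under 10 were seen in TGFβ/IL-34/Jag1 and in none of the other groups. Without FICZ replicate 1 the log2 fold changes of Tlr1 and Tlr6 were 0.60 (adjusted p 0.688) and 0.47 (adjusted p 0.611), and without FICZ replicate 2 they were 1.50 (adjusted p 0.0532) and 1.45 (adjusted p 0.0108). For Tlr5 they were 1.23 (adjusted p 0.129) and 1.10 (adjusted p 0.0262), in the same order. Without FICZ replicate 2, 5 receptors were called, Tlr2 lower and Tlr5, Tlr6, Tlr9 and Tlr13 higher, and without FICZ replicate 1 none was.

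The balance of the classes was described within each sample as the mean log2(value + 1) of the 5 endosomal receptors minus that of the 5 surface receptors. The endosomal mean was below the surface mean in all 11 samples, with differences from −4.33 to −0.66. In TGFβ/IL-34 the difference was −1.23 and −0.66, and with Jag1 it was −4.33, −1.96 and −2.83. These groups did not overlap, and the surface mean was 8.10 without and 8.00 with Jag1, while the endosomal mean was 7.16 and 4.96. Every receptor weighs equally in these means. Tlr7 and Tlr8, at most 6.46 and 13.3 in the Jag1 samples, had the largest endosomal log2 fold changes (−3.17 and −3.90). Those of Tlr13, Tlr3 and Tlr9 were −1.70, −1.56 and −0.66. With Jag1 and FICZ the difference was −2.61, −3.01 and −2.93, and with FICZ alone −3.07 and −1.05. As a share of the summed normalized counts per kb, which the abundant Tlr9 and Tlr13 lead, endosomal receptors made up 58.7% and 56.2% in TGFβ/IL-34, 16.2% and 65.1% with FICZ, 24.6%, 46.5% and 49.1% with Jag1, and 43.6%, 51.2% and 42.9% with both. By this measure the 3 samples with both additions also lay below both TGFβ/IL-34 samples. The 2 samples with the lowest shares, replicate 1 of TGFβ/IL-34/FICZ and replicate 1 of TGFβ/IL-34/Jag1, carry the same experiment code. By the labels, replicate 1 with both additions (43.6%) and the Jag1 only sample (50.6%) also carry it. In the authors' file, replicate 1 of TGFβ/IL-34 (58.7%) has it as well. The part of the experiment in these shares was not tested.

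**Figure D3:**
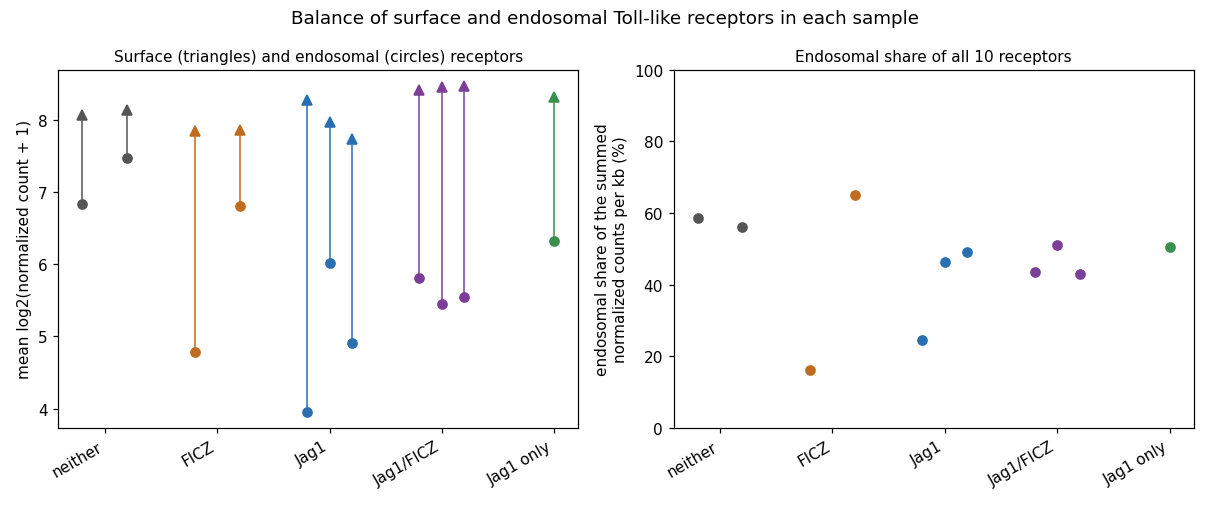
The left panel plots for each sample the mean log2(normalized count + 1) of the surface (triangles) and endosomal (circles) receptors, joined by a line, and the right panel the endosomal share in % of the summed normalized counts per kb of all 10. The lines are short in the neither group, with differences of −1.23 and −0.66, and in 1 of the FICZ samples at −1.05, and longest in 1 of the Jag1 samples at −4.33.

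The Jag1 only sample, grown without TGFβ and IL-34, had the highest Tlr1 and the lowest Tlr2 of all samples. It has no replicate, so no test was made. Tlr1 stood at 467, against 31.5 to 218 in the other 10 samples, which is 2.14 times the next highest. Tlr2 stood at 361, against 432 to 1448. The other 8 receptors were inside the range of the other 10 samples, and of all tested genes 38.2% were outside it. Against the 3 TGFβ/IL-34/Jag1 samples alone, Tlr1, Tlr6, Tlr7, Tlr9 and Tlr13 were above their range and Tlr2 and Tlr5 below it, where 74.6% of tested genes were outside. Tlr7 stood at 61.7 against 0 to 6.46, Tlr13 at 639 against 242 to 517, and Tlr5 at 298 against 463 to 874. Tlr3, Tlr4 and Tlr8, at 6.31, 310 and 8.05, were inside that range. The sample also had the lowest Epcam, at 657 against 3952 to 14377 elsewhere, and the lowest sum of Langerhans cell markers (24854), and the part of these markers in its receptor levels was not tested.

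The genes around the receptors were read from lists of co-receptors, endosomal helpers, adaptors and kinases, transcription factors, inhibitors and induced genes, 64 in all, of which 57 were tested. Of these, 7 were called for Jag1 without FICZ (12.3%, beside 6.60% of all tested genes) and 11 for FICZ with Jag1 (19.3%, near the 17.7% of all tested genes). For both additions 6 were called (10.5%, beside 4.48%), for Jag1 with FICZ 3 (5.26%, beside 2.02%), for the interaction 1 (1.75%, beside 1.39%) and for FICZ without Jag1 0 (beside 0.0229%). The median log2 fold changes of all tested genes were between −0.02 and 0.07 in these comparisons.

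The endosomal helpers held most of the changes with Jag1. Of 10 tested, 3 were lower and 1 higher, with a median log2 fold change of −0.16. Unc93b1, the chaperone that carries nucleic acid receptors to endosomes, stood at 8219 and 8223 in TGFβ/IL-34 and at 3802, 3611 and 3354 with Jag1. The samples of each group lay close together, and the log2 fold change was −1.20 (SE 0.15, adjusted p 0.00109). With FICZ in Jag1 cultures Unc93b1 stood at 5612, 5006 and 5559, higher by 0.59 (SE 0.13, adjusted p 0.0107) yet below the controls without Jag1. It was also lower with Jag1 in FICZ cultures (−0.78, adjusted p 0.0278) and with both additions against neither (−0.61, adjusted p 0.0441).

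Among the lysosomal proteases, Lgmn (legumain) fell with Jag1 by 1.04 on the log2 scale (adjusted p 0.0341) and was higher with FICZ in Jag1 cultures by 1.26 (adjusted p 0.00322). Its values were 4849 and 5051 in TGFβ/IL-34, 2556, 2290 and 2397 with Jag1, and 6378, 5703 and 5261 with both. Ctsl (cathepsin L) fell with Jag1, at 6192 and 5499 without and 2742, 2858 and 2971 with it (log2 fold change −1.03, adjusted p 0.00332). Ctsb (cathepsin B) ran the other way: it rose with Jag1 (0.82, adjusted p 0.0128) and fell with FICZ in Jag1 cultures (−1.16, adjusted p 0.000434), and it was the 1 listed gene called for the interaction (−1.11, adjusted p 0.0439). Ctss (cathepsin S) fell with FICZ in Jag1 cultures (−0.68, adjusted p 0.0209). The proteases thus did not move in 1 direction.

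None of the 5 co-receptors and delivery proteins tested was called in any of the 6 comparisons. Among them is Cd14, which hands lipopolysaccharide to Tlr4. Of 17 adaptors and kinases, the call was Traf3, an adaptor of the interferon arm, at 638, 883 and 1094 without and 1920, 2047 and 1962 with FICZ in Jag1 cultures (log2 fold change 1.21, adjusted p 0.0164). Myd88, singled out as the shared adaptor after its values were seen, had log2 fold changes of −0.26 with Jag1 and 0.07 with FICZ in Jag1 cultures (adjusted p 0.616 and 0.871). Of 6 transcription factors, Irf7, which acts in interferon induction behind Tlr7 and Tlr9, was called lower with FICZ in Jag1 cultures, at 117, 237 and 470 without and 44.2, 28.1 and 58.8 with it (log2 fold change −2.46, adjusted p 0.00466). It was also lower with both additions against neither (−3.14, adjusted p 0.00948). So Tlr7 and Irf7 moved in opposite directions when FICZ was added to Jag1 cultures.

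Of 9 inhibitors tested, Socs1, a brake on cytokine signalling, was lower with Jag1 (−0.77, adjusted p 0.0190) and higher with FICZ in Jag1 cultures (0.89, adjusted p 0.00213). Nfkbia, the inhibitor of NF-κB that is itself an NF-κB target, was higher with Jag1 (1.07, adjusted p 0.0281), and Dusp1, a phosphatase of MAP kinases, was higher with both additions against neither (0.94, adjusted p 0.0383) and with Jag1 in FICZ cultures (1.07, adjusted p 0.0353). Of 10 induced genes tested, Il1b was higher with Jag1, at 2155 and 3577 without and 13974, 6029 and 12670 with it (1.88, adjusted p 0.0338). With FICZ in Jag1 cultures 4 were higher: the chemokines Ccl3 (4.16, adjusted p 0.00162) and Ccl4 (3.02, adjusted p 0.000525), the prostaglandin synthase Ptgs2 (2.22, adjusted p 0.00303) and the cytokine Il6 (1.51, adjusted p 0.00667), which the rule for named genes left out and which was added after its values were seen. Ptgs2 (2.75, adjusted p 0.00782) and Cxcl1 (2.07, adjusted p 0.0327), a neutrophil chemokine, were higher with both additions against neither. Tlr12 was higher with FICZ in Jag1 cultures, at 61.9, 81.0 and 120 against 2.58, 23.6 and 6.66 (3.28, SE 0.62, adjusted p 0.00454), and Tlr11 did not pass in any comparison.

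Genes with a profile most like that of the most abundant surface and endosomal receptor were sought among 11081 genes, by the root mean square difference in log2(value + 1) over the 11 samples after each gene was centred. For Tlr2, whose own spread by this measure was 0.54, they were Mars1 (0.27), Acap1 (0.32) and Top1mt (0.32). For Tlr9, with a spread of 0.84, they were Jakmip2 (0.20), Eif5a2 (0.20) and Ankrd52 (0.21). The differences were thus smaller for Tlr9, whose profile is led by the low value in replicate 1 of TGFβ/IL-34/FICZ.

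Of the calls made for the receptors, that of Tlr7 for FICZ with Jag1 was the one that held in every alternative. The call of Tlr1 in that comparison held in 9 of 16, and those of Tlr5 and Tlr7 for Jag1 without FICZ in 7 and 4 of 15. Tlr13, not called as reported, passed in 6 of 16 for FICZ with Jag1 and in 6 of 15 for Jag1 without FICZ.

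**Figure D4:**
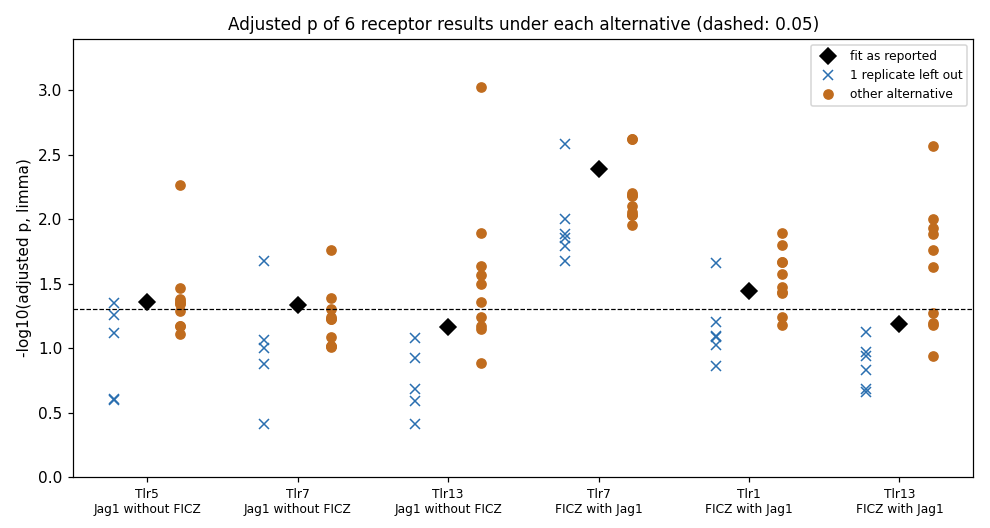
The −log10 of the adjusted p (limma) is plotted for 6 receptor results as reported (diamonds), with 1 replicate left out (crosses) and under the other alternatives (circles), with a dashed line at 0.05. All points of Tlr7 for FICZ with Jag1 lie above the line, and each other result has points on both sides except the crosses of Tlr13, which all lie below.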

How the data were processed

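The authors quantified the reads with salmon against a GRCm39 transcript model, summed them per gene with tximport and deposited DESeq2-normalized values, a signal of counts divided by size factors. Tool versions are not given in the sources used here. Whole reads could not be recovered, so no count test was made. The 13095 genes that reached 10 in 2 or more of 11 samples were fitted with limma 3.58.1 in R 4.3.3 on log2(value + 1), with 5 group means, no covariate and 6 residual degrees of freedom. The p-values were two-sided and adjusted over all tested genes by Benjamini-Hochberg in each of 6 comparisons, at 0.05. Scripts were tested on simulated data. The receptors and gene lists were chosen with earlier results of these data known. Named genes were the 10 receptors, in each list up to 3 called genes per direction and comparison by fold change, and for the most abundant receptor of each class the 3 genes with the nearest profile. Replicate numbers pair the samples with Jag1 and those with both additions, since they share experiment codes and their deviations correlated at 0.153, 0.122 and 0.166. Replicates 1 and 2 with FICZ alone carry the same codes. Their deviations correlated at 0.197 and 0.088 with Jag1 and at 0.059 and 0.058 with both additions. In TGFβ/IL-34 the numbers stand for other codes. The experiment code in the authors' file differed from the labels in 1 sample. Alternatives were other pseudocounts, no filter, quantile normalization, replicate, experiment code and flow cell blocks, array weights, the groups of a comparison alone and each replicate left out. A block on the code in the authors' file was added after seeing the data.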

Additional observations from a re-analysis of the deposited data

Results flagged for a closer look

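The Jag1 only sample, which entered no comparison, held Tlr1 at 467 normalized counts, above the 31.5 to 218 of the other 10 samples. This value was picked out because it lay above all other 10 samples, the TGFβ/IL-34 controls (108 to 120) included. Among all tested genes, 20.1% were above the other 10 samples in this sample. It has no replicate, and the difference was not tested.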

How the results depend on the processing

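Over all receptors, comparisons and alternatives 950 fold changes were computed again. Of these, 55 changed sign, 37 gained and 26 lost a call, and none that was called in the reported fit changed sign. With Jag1 without FICZ, where 2 receptors were called, the count was 1 with pseudocount 0.5 (Tlr5), 0 with no filter, 1 with quantile normalization (Tlr5), 1 with the replicate block (Tlr13), 2 with the experiment code block (Tlr13 and Tlr4 in place of Tlr5 and Tlr7), 4 with array weights, 1 with the groups of the comparison alone (Tlr13) and 0 to 2 with 1 replicate left out. With FICZ with Jag1, where 2 were called, it was 1 with no filter and with quantile normalization (Tlr7), 5 with array weights, 3 with the replicate block and 1 to 3 with 1 replicate left out. With both additions against neither it was 3 with array weights and with the groups alone. With a replicate left out it was 0 to 3 for FICZ without Jag1, 0 to 5 for Jag1 with FICZ and 0 to 4 for the interaction, in each case highest without replicate 2 of TGFβ/IL-34/FICZ, a fit with 1 FICZ sample that is assumed to vary like the other groups. The replicate block called no receptor in the other 4 comparisons. Its numbers match the experiment codes among the FICZ, Jag1 and Jag1/FICZ groups, but not those of TGFβ/IL-34. The endosomal minus surface mean was −3.09 and −2.30 with pseudocounts 0.5 and 4 for TGFβ/IL-34/Jag1/FICZ (−2.85 as reported), and −2.04 and −1.82 for Jag1 only. All receptors passed the filter, so leaving out those that did not changes nothing. Among uncalled fold changes, signs changed as follows. With a replicate left out the ranges were for Jag1 without FICZ Tlr2 −0.37 to 0.28 and Tlr6 −0.022 to 0.27. For FICZ without Jag1 Tlr1 −0.87 to 0.033, Tlr2 −0.65 to 1.10, Tlr6 −0.84 to 0.14, Tlr7 −0.26 to 0.84, Tlr9 −3.06 to 0.051 and Tlr13 −1.78 to 0.10. For both additions against neither Tlr2 −0.27 to 0.37. For FICZ with Jag1 Tlr2 −0.15 to 0.29, Tlr8 −1.16 to 1.09 and Tlr9 −0.10 to 0.32. For Jag1 with FICZ Tlr2 −1.05 to 0.70, Tlr4 −0.18 to 0.063, Tlr8 −1.97 to 0.40, Tlr9 −0.55 to 2.56 and Tlr13 −0.49 to 1.39. For the interaction Tlr2 −1.001 to 0.74, Tlr3 −1.97 to 0.80 and Tlr5 −0.12 to 0.34. With a block on the code in the authors' file, Tlr2 was 0.21 and Tlr6 −0.015 for Jag1 without FICZ, Tlr4 0.022 for Jag1 with FICZ and Tlr5 −0.035 for the interaction. With the flow cell block, Tlr2 was −0.090 for FICZ without Jag1, −0.16 for both additions and −0.11 for FICZ with Jag1, where Tlr8 was −0.31, and Tlr4 was 0.012 for Jag1 with FICZ. With the replicate block Tlr2 was −0.022 for both additions and Tlr4 0.042 for Jag1 with FICZ, and with the experiment code block these were −0.12 and 0.056. For FICZ with Jag1, Tlr8 was −0.11 with pseudocount 0.5, −0.60 with quantile normalization and −0.36 with array weights, and quantile normalization put Tlr5 at −0.024 for the interaction. The cause of these changes was not tested. Genes called numbered 864 for Jag1 without FICZ (195 to 713 with a replicate left out, 721 to 2627 otherwise), 2312 for FICZ with Jag1 (1389 to 1821, 2237 to 4123), 3 for FICZ without Jag1 (0 to 5734, 0 to 5), 587 for both additions (35 to 305, 489 to 3558), 264 for Jag1 with FICZ (54 to 5827, 0 to 289) and 182 for the interaction (9 to 5497, 8 to 250).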
